A study of Rattus norvegicus and Bos taurus with 6 samples.

Results

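Perilipins and the proteins that work beside them coat, build and enlarge the lipid droplet, the store of triglyceride in an adipocyte. PLIN1 is the coat protein of mature adipocytes and holds lipases away from the droplet until it is phosphorylated, PLIN2 and PLIN3 coat droplets in most tissues, PLIN4 coats droplets in white adipocytes, and PLIN5 links droplets to mitochondria in tissues that oxidize fat. CIDEC fuses small droplets into large ones, FITM2 partitions triglyceride into new droplets, and BSCL2 (seipin) sits where droplets bud from the endoplasmic reticulum. White adipocytes hold 1 large droplet, whereas brown adipocytes hold many small ones beside mitochondria with UCP1, the uncoupling protein that turns fuel into heat. The 8 genes Plin1, Plin2, Plin3, Plin4, Plin5, Cidec, Fitm2 and Bscl2 were found by symbol, in any letter case, among 25629 genes in the 10x Genomics table, 38697 genes in each rat Parse table and 36075 genes in the cow table. All 8 had a row with UMIs in the 10x Genomics and cow tables. Of the 8, 7 had a row in the rat Parse tables and UMIs in each of the 4 libraries, and no row carried the symbol Plin3.

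The study set out to obtain single-nucleus RNA-seq from frozen fat, and deposited 6 libraries, 1 per tissue and platform. The first 5 libraries came from male Dahl SS rats (strain SS/HsdMcwiCrl), whose disease state is labelled normal and for which no treatment is named. These were mesenteric perivascular fat (mesPVAT) on the 10x Genomics and on the Parse platform, and retroperitoneal (RP) fat, thoracic aortic perivascular fat (taPVAT) and subscapular brown fat (BAT) on Parse. The sixth library was subcutaneous white fat (WAT) from the flank of female, lactating Holstein cows, also labelled normal and on Parse. All tissue was snap frozen, the rats were housed at room temperature and the cows in tie-stalls. The 10x Genomics library was made in batch 1 and the 5 Parse libraries in batch 2. The labels name mesPVAT, RP fat and cow WAT as white fat, and taPVAT and BAT as brown. Ages of the animals and the number of animals behind each library are not given in the sources used here. With 1 library per group no test between tissues could be made. Intervals are at 95%, exact (Poisson for a level, binomial for a share, conditional binomial for a ratio), and cover counting error only, not the spread between animals.

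The libraries held 2297 to 5887 nuclei and 845316 to 16827260 UMIs (counted transcripts). Median UMIs per nucleus were 3530 in cow WAT, 1706 in BAT, 1246 in taPVAT, 346 in mesPVAT, 213 in RP fat and 161 in mesPVAT on 10x Genomics, and no barcode was shared between libraries. Doublets were not removed. On Parse, the study found no clear break between nuclei and background RNA in mesPVAT or RP fat. It judged the genes detected in rat white fat too few for robust annotation of cells. Barcodes of these libraries are called nuclei here as deposited, and how many hold background RNA was not tested. The white rat libraries are called by their deposited labels, and the study's text orders mesPVAT and RP fat the other way round from the files in median genes, median transcripts and the highest number of UMIs in a nucleus. In the files the fullest nucleus held 41374 UMIs in mesPVAT and 5611 in RP fat. If these labels were exchanged, each ratio between the 2 libraries would turn, and the depot with the highest Plin4 would be RP fat. Whether they are could not be settled here. Levels are UMIs summed over nuclei, as counts per 1000000 UMIs of the same nuclei (CPM). In such sums, fewer cells of a type and less RNA per cell cannot be told apart. Between the cow and the rat libraries, species, sex, gene annotation, depot and filtering of nuclei differed together and cannot be told apart either. Among the marker lists, the adipocyte list summed to 10859 CPM in mesPVAT on 10x Genomics, 2327 CPM in mesPVAT, 932 CPM in RP fat, 8016 CPM in taPVAT, 9388 CPM in BAT and 1911 CPM in cow WAT. The striated muscle list, whose cells also use Plin5, summed to 102, 497, 639, 379, 294 and 131 CPM in the same order. Over the 6 libraries the stromal list ranged from 432 to 3646 CPM, the endothelial list from 762 to 2092, the pericyte or smooth muscle list from 160 to 1140, the immune list from 205 to 1003, the mesothelial list from 9.97 to 899 and the Schwann list from 100 to 642 CPM. All 10 adipocyte markers had UMIs in each rat library, and the cow table lacked a row for Adipoq. Ucp1 reached 1782 CPM in taPVAT and 2072 CPM in BAT. It was at 63.4 CPM in mesPVAT, 89.9 CPM in RP fat, 0.808 CPM (1 UMI) in mesPVAT on 10x Genomics and 0.654 CPM (11 UMIs) in cow WAT.

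Promoter sequences from RefSeq (build GRCr8) are shown for 3 perilipins, because Plin4 and Plin5 are neighbours whose highest levels lay in different depots, and Plin1 is the perilipin against which both were set. Plin1 lies on chr1:143073612-143086199, Plin4 on chr9:1016334-1025249 and Plin5 on chr9:1026910-1033352, all on the minus strand. Plin4 and Plin5 are 1660 bases apart, so reads that run past the end of Plin5 could be counted for Plin4, and their values are uncertain to that extent. The sequences run 5′ to 3′ and stop just before the first annotated base of the gene. They cover, for Plin4 its first RefSeq window, chr1:143086200-143086398, chr9:1025250-1025499 and chr9:1033353-1033534. Capitals mark matches, on either strand, to TTNNGCAA (the C/EBP type, C/EBP proteins being adipocyte transcription factors), AGGTCA (a nuclear receptor half-site) and GGGCGG (a GC box).

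Plin1: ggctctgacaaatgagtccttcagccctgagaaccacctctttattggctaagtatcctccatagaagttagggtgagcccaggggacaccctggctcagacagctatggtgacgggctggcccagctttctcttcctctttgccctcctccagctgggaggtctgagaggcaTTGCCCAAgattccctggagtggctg
Plin4: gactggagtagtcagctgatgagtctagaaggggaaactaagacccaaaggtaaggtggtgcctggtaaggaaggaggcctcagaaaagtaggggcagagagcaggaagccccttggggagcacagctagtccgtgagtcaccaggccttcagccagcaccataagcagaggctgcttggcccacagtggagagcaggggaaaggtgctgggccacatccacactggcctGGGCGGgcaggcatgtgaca
Plin5: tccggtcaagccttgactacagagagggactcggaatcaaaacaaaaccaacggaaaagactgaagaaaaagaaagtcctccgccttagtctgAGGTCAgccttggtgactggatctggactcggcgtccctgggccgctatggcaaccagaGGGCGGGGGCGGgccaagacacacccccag

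Positions are counted back from the start of transcription of the RefSeq window. For Plin1 and Plin5 that start lies 51 and 68 bases inside the annotated gene, so the printed sequences end that many bases before it, while for Plin4 they end right at it. Plin1 held 1 TTNNGCAA match, beginning 77 bases before the start, and neither of the other motifs. Plin4 held 1 GGGCGG match 20 bases before the start. Plin5 held 1 AGGTCA match at 157 bases and GGGCGG at 98 and at 92 bases before the start, back to back. Among 33469 RefSeq promoter windows of 250 bases, 9.22% held TTNNGCAA, 14.1% held AGGTCA and 30.5% held GGGCGG on either strand. None of the 3 windows held the direct repeat of AGGTCA bound by PPAR with RXR (0.0508% of windows; its matches, like those of TCAAGGTCA, hold an AGGTCA), TCAAGGTCA (0.388%, the ERR site), TATAAA (12.9%), CACGTG (5.59%) or TGACGTCA (1.59%). A match is a description of the letters in these windows only.

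The question of which perilipin goes with which depot was first asked over all nuclei of each library, as drawn in the plot of levels by library. Plin1, the adipocyte coat protein, was highest in the brown depots and lowest in the cow. It stood at 2501 CPM (2462 to 2541) in BAT, 2435 CPM (2393 to 2478) in taPVAT, 1287 CPM (1233 to 1343) in mesPVAT, 659 CPM (615 to 706) in mesPVAT on 10x Genomics, 478 CPM (432 to 527) in RP fat and 164 CPM (158 to 170) in cow WAT. Each neighbour in that order differed beyond counting error, although BAT exceeded taPVAT by a ratio of only 1.03 (1.00 to 1.05). Nuclei with a Plin1 UMI made up 69.1% of BAT, 60.4% of taPVAT, 22.0% of mesPVAT, 17.5% of cow WAT, 11.3% of mesPVAT on 10x Genomics and 9.59% of RP fat. After each nucleus was thinned to 200 UMIs the shares were 32.0% in BAT, 28.1% in taPVAT, 14.1% in mesPVAT, 13.3% in mesPVAT on 10x Genomics, 7.59% in RP fat and 1.70% in cow WAT. Thinning left out 64.3% of the 10x Genomics nuclei, 15.7% of mesPVAT and 46.4% of RP fat, and no nuclei of the other libraries.

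**Figure D1:**
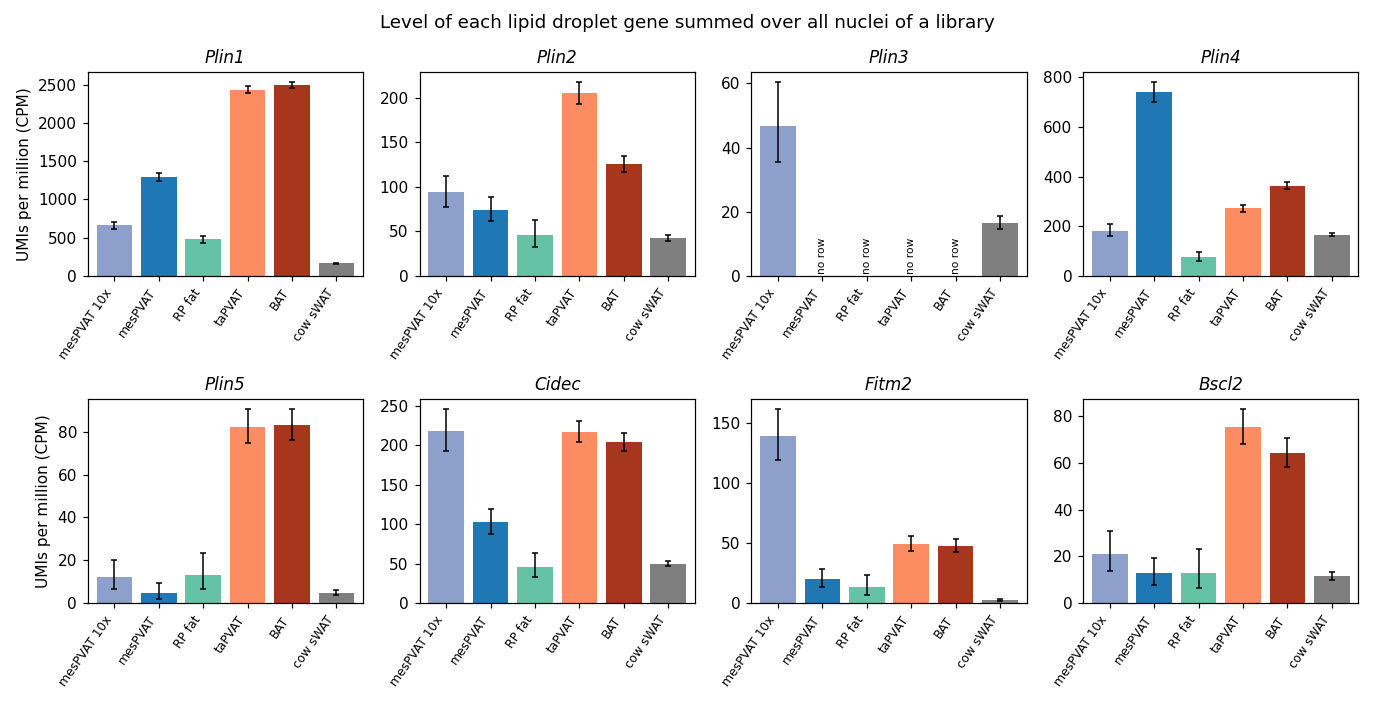
Level of each gene in CPM (linear axes starting at 0) in the 6 libraries, with exact 95% Poisson intervals that cover counting error; "no row" marks tables without the symbol Plin3. Plin5 and Bscl2 stand highest in taPVAT and BAT, while Plin4 stands highest in mesPVAT on Parse at 741 CPM.

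Plin4 did not follow Plin1. It was highest in mesPVAT at 741 CPM (700 to 783), and stood at 363 CPM (349 to 379) in BAT, 273 CPM (259 to 287) in taPVAT, 182 CPM (159 to 207) in mesPVAT on 10x Genomics, 164 CPM (158 to 171) in cow WAT and 75.7 CPM (58.3 to 96.7) in RP fat. The brown levels thus lay between those of the white depots, with mesPVAT 2.04 times (1.90 to 2.19) above BAT. Only mesPVAT on 10x Genomics and cow WAT could not be told apart in this order, with a ratio of 1.11 (0.961 to 1.27). A Plin4 UMI was seen in 16.9% of mesPVAT nuclei against 39.8% in BAT, but at 200 UMIs per nucleus in 9.56% of mesPVAT against 6.56% of BAT, 4.54% of taPVAT and 1.40% of RP fat.

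Plin5, the perilipin of oxidative tissue, had the widest gap between brown and white. It reached 83.3 CPM (76.3 to 90.7) in BAT and 82.3 CPM (74.7 to 90.6) in taPVAT, which could not be told apart. The white rat libraries held few UMIs of Plin5: 15 in mesPVAT on 10x Genomics (12.1 CPM), 8 in mesPVAT (4.83 CPM) and 11 in RP fat (13 CPM). Cow WAT held 79 UMIs (4.69 CPM). None of the neighbours in order of level among these 4 white libraries could be told apart. The interval of cow WAT (3.72 to 5.85 CPM) nevertheless lay below those of RP fat (6.50 to 23.3) and mesPVAT on 10x Genomics (6.78 to 19.99). The brown depot taPVAT exceeded RP fat, the highest of the white libraries, by a ratio of 6.33 (3.50 to 12.8). Nuclei with a Plin5 UMI made up 14.6% of BAT, 12.1% of taPVAT, 2.00% of cow WAT and 0.255% to 0.357% of the white rat libraries. At 200 UMIs per nucleus the share was 1.33% in BAT and in taPVAT, and 0.157% to 0.333% in the white rat libraries. It was 0 of 2297 nuclei in cow WAT, with an interval up to 0.160%.

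Plin2, the coat protein of most tissues, was higher in taPVAT than in BAT. It stood at 205 CPM (193 to 218) in taPVAT and 126 CPM (117 to 135) in BAT. Lower levels were 93.7 CPM (77.5 to 112) in mesPVAT on 10x Genomics, 74.2 CPM (61.7 to 88.6) in mesPVAT, 46.1 CPM (32.8 to 63.1) in RP fat and 42.1 CPM (39.0 to 45.3) in cow WAT. The mesPVAT libraries could not be told apart, nor could RP fat and cow WAT. Plin3, which shuttles between cytosol and new droplets, stood at 46.9 CPM (35.6 to 60.6) in mesPVAT on 10x Genomics and 16.6 CPM (14.7 to 18.6) in cow WAT. The gene identifier named Plin3 in the 10x Genomics table is named Ticam1 in the Parse tables, and Ticam1 is the next gene on chromosome 9 of GRCr8. That row held 14.5 CPM in mesPVAT, 9.46 CPM in RP fat, 29.0 CPM in taPVAT and 24.8 CPM in BAT, and it was not counted as Plin3.

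Among the proteins that build or enlarge droplets, Cidec stood at 218 CPM in mesPVAT on 10x Genomics, 217 CPM in taPVAT and 204 CPM in BAT, which could not be told apart as neighbours. It was at 103 CPM in mesPVAT, 49.9 CPM in cow WAT and 46.1 CPM in RP fat. Fitm2 was highest in mesPVAT on 10x Genomics at 139 CPM, ahead of taPVAT (49.0 CPM), BAT (47.6 CPM), mesPVAT (19.9 CPM), RP fat (13 CPM) and cow WAT (2.32 CPM). Bscl2 stood at 75.3 CPM in taPVAT and 64.3 CPM in BAT, against 21.0 CPM in mesPVAT on 10x Genomics, 13 CPM in RP fat, 12.7 CPM in mesPVAT and 11.5 CPM in cow WAT. Its white libraries could not be told apart as neighbours, although the interval of cow WAT (9.91 to 13.2) lay below that of mesPVAT on 10x Genomics (13.7 to 30.8).

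For each comparison between rat libraries, a gene was called when its CPM differed at least 2-fold, with 10 or more UMIs over both sides. Between the brown depots taPVAT and BAT, 0 of 7 members were called, where 11% of 23157 genes were, 8.52% higher in taPVAT and 2.48% lower. Plin1, Plin5, Cidec and Fitm2 differed by ratios of 0.974 to 1.06 (taPVAT over BAT), and Bscl2 by 1.17 (1.02 to 1.35). Plin2 was 1.64 times (1.49 to 1.80) higher in taPVAT, and Plin4 was 1.33 times (1.25 to 1.43) higher in BAT. Both differences were as large in adipocyte-marker nuclei alone, at 1.69 (1.53 to 1.86) for Plin2 and 1.32 (1.23 to 1.41) for Plin4.

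Between the white depots, 4 of 7 members were called, where 6.44% of 24058 genes were higher in mesPVAT, 13.1% lower, and 19.6% either. Plin4 was 9.78 times (7.61 to 12.8) higher in mesPVAT than in RP fat, Plin1 2.69 times (2.42 to 3.00) and Cidec 2.22 times (1.56 to 3.24). Plin5 was called lower in mesPVAT from 8 against 11 UMIs, with a ratio of 0.371 (0.130 to 1.01) that includes 1, and sublibrary 2 alone turned its direction. The adipocyte list was also higher in mesPVAT, at 2327 against 932 CPM. In adipocyte-marker nuclei, Plin1 differed by 1.51 (1.26 to 1.84) and Plin4 by 6.17 (3.78 to 10.8). There Cidec had a ratio of 1.61 (0.791 to 3.82) and was no longer called. Plin2 stood at 0.563 (0.213 to 1.88, from 26 against 5 UMIs) and Fitm2 at 0.487 (0.160 to 1.98, from 18 against 4 UMIs), where over all nuclei both ratios were above 1. These 3 intervals include 1.

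Between brown and white fat, the lower of the brown libraries was set against the higher of the white rat Parse libraries. The study spun nuclei of taPVAT at a lower speed than those of rat white fat, and states no speed for BAT. Depot and nuclei preparation thus cannot be told apart in this comparison. Of 7 members 3 were called higher in brown fat and 0 lower, where 4.54% of 28177 genes were higher, 50.6% lower and 55.1% either. These were Plin5 with a ratio of 6.33, Bscl2 with 4.94 and Fitm2 with 2.39. For Fitm2, mesPVAT on 10x Genomics, which is not in this comparison, stood above both brown libraries at 139 CPM. In adipocyte-marker nuclei the log2 ratio of Fitm2 between brown and white fat was -0.13. Cidec (1.99), Plin1 (1.89) and Plin2 (1.69) were above the white libraries in both brown ones but under 2-fold, and Plin4 overlapped. The median log2 ratio of brown over white, from the mean log2 level of each pair of libraries, was 1.61 over the 7 members and -1.84 over all genes tested. Scaling by size factors moved the median of all genes to -1.06 and left 13.1% of genes higher and 37.7% lower. It left 6 members called higher. With RP fat alone as white fat 7 members were called, Plin4 among them, and the share of all genes was not counted. With mesPVAT alone the log2 ratio of Plin4 was -1.23, lower in brown fat, and mesPVAT stood 2.04 times above BAT.

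The wider set of droplet genes, 32 genes for lipases, triglyceride synthesis and droplet scaffolds, was chosen with earlier results of these data known. Of these, 30 had a row in the rat Parse tables. Between the platforms 11 of 28 with enough UMIs were higher on 10x Genomics and 3 lower, where 20.8% and 37.9% of all genes were. Between taPVAT and BAT 0 of 27 were called, against 11% of all genes. Between mesPVAT and RP fat 6 of 28 were higher in mesPVAT, against 6.44% of all genes, among them the hormone-sensitive lipase Lipe (2.89) and the monoglyceride lipase Mgll (2.43). The others were G0s2, Aup1, Rab8a and Agpat2 with ratios of 2.00 to 3.32. Cideb was lower, from 2 against 8 UMIs. Between brown and white fat 9 of 28 were higher in brown fat, against 4.54% of all genes, with a median log2 ratio of 1.28. They were led by Cidea (13.9), the brown fat relative of Cidec, and by the acyltransferase Agpat2 (7.94). The lipase Pnpla2 (5.14), the triglyceride synthases Dgat2 (4.16) and Dgat1 (2.79), and Lpin1 (3.34), Pnpla3 (2.72), Lipe (2.62) and the lipase cofactor Abhd5 (2.54) followed. Cideb was the single gene called lower, from 2 and 1 UMIs in the brown libraries. Of the thermogenic list, 10 of 10 genes with enough UMIs, Ucp1 included, were higher in brown fat, against the same 4.54%. Cidea stands on both lists and is counted in each. Mgll had a ratio of 1.12 and the caveolar scaffold Cavin1 of 0.585. Pnpla2, Lipe and Dgat2 also stand on the adipocyte marker list, which summed to 8016 CPM or more in brown and 2327 CPM or less in white rat Parse libraries.

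Nuclei were put in a class when they held 2 or more UMIs of its markers and more than of any other class. No member and no Ucp1 is on the marker lists. Adipocyte-marker nuclei numbered 1742 (64.5%) in BAT, 1514 (55.9%) in taPVAT, 2414 (41.0%) in mesPVAT on 10x Genomics, 537 (17.7%) in mesPVAT, 187 (8.14%) in cow WAT and 115 (4.10%) in RP fat. In RP fat 67.0% of them rested on exactly 2 marker UMIs, against 27.9% in mesPVAT and 1.03% in BAT. Sums over this class leave out the nuclei of other classes, but they rest on the marker rule. Whether the class is equally pure in each library was not tested.

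Plin1 marked the adipocyte class in each Parse library. It was higher there than in endothelial-marker nuclei by a ratio of 19.9 (16.5 to 24.3) in cow WAT, 17.8 (13.5 to 23.9) in mesPVAT, 12.3 (7.44 to 21.4) in RP fat, 9.93 (8.74 to 11.3) in BAT and 8.58 (7.42 to 9.97) in taPVAT. Nuclei with a Plin1 UMI made up 95.5% of the adipocyte class in BAT, at a median of 2192.5 UMIs, and 19.9% of the endothelial class, at a median of 1051 UMIs. In mesPVAT the shares were 73.9% at 593 UMIs and 8.47% at 546 UMIs. Since endothelial cells should lack Plin1, shares of that size in other classes are not read as expression there. Doublets were not removed, and the source of these UMIs was not tested. In cow WAT the contrast with stromal progenitors was smaller, at 4.54 (4.16 to 4.96) for Plin1 and 4.52 (4.13 to 4.94) for Plin4. Stromal-marker nuclei of the cow stood at 119 CPM of Plin1, against 27.0 CPM in endothelial-marker nuclei.

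**Figure D2:**
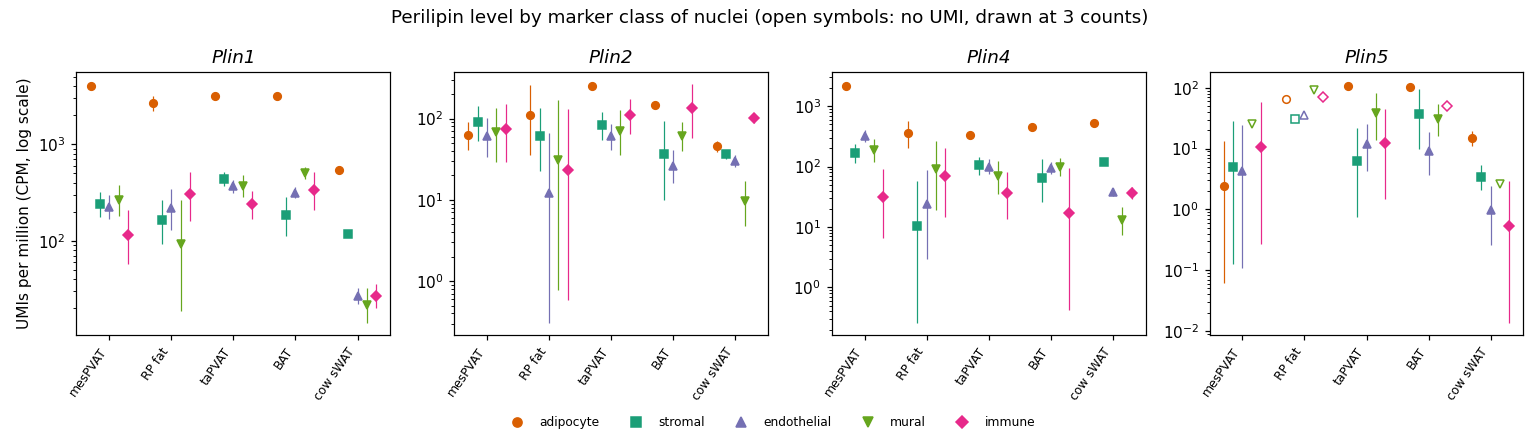
Level of 4 perilipins in CPM (log axes) by marker class of nuclei in the 5 Parse libraries, with exact 95% Poisson intervals. The adipocyte, stromal, endothelial, pericyte or smooth muscle (mural) and immune classes are drawn, and the other classes and unnamed nuclei are not. Open symbols have no UMI and are drawn at 3 counts. Among the classes drawn, Plin1 and Plin4 stand highest in adipocyte-marker nuclei of each library, and Plin2 in cow WAT stands highest in immune-marker nuclei at 102 CPM.

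Plin4 was also an adipocyte gene, with a ratio over endothelial-marker nuclei of 13.8 (11.7 to 16.3) in cow WAT, 6.72 (5.31 to 8.62) in mesPVAT, 4.70 (3.71 to 6.03) in BAT and 3.38 (2.55 to 4.56) in taPVAT. In these 4 libraries its contrast was smaller than that of Plin1. In RP fat it was 14.7 (3.46 to 132, from 16 against 2 UMIs), an interval that holds the Plin1 ratio of 12.3. For each 100 Plin1 UMIs, endothelial-marker nuclei held 144 Plin4 UMIs (99.9 to 210) in mesPVAT against 54.4 in adipocyte-marker nuclei. In BAT they held 30.0 (22.7 to 39.2) against 14.2. The UMIs of both genes thus did not keep 1 ratio between the endothelial and adipocyte classes of these libraries. The intervals of stromal, immune, pericyte or smooth muscle and unnamed nuclei overlapped that of the adipocyte class in both. Plin5 was seen in 21.4% of adipocyte-marker nuclei of BAT against 1.3% of endothelial-marker nuclei, and in taPVAT in 20.4% against 1.47%. In RP fat the 11 Plin5 UMIs all lay in nuclei without a class, and adipocyte-marker nuclei held 0 UMIs, with an exact interval up to 82.0 CPM.

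Within adipocyte-marker nuclei the perilipins could be set against Plin1 in the same nuclei. Plin4 made up 54.4 UMIs per 100 Plin1 UMIs (50.1 to 59.0) in mesPVAT, 27.7 (23.3 to 32.6) in mesPVAT on 10x Genomics, 14.2 (13.6 to 14.8) in BAT, 13.3 (7.38 to 22.6) in RP fat and 10.7 (10.1 to 11.4) in taPVAT. The ratio in mesPVAT was above that of each other rat library, and RP fat overlapped both brown depots. In cow WAT it was 98.3 (92.1 to 105). Plin5 made up 3.36 UMIs (3.04 to 3.72) in taPVAT, with 3.29 (3.00 to 3.60) in BAT, and cow WAT had 2.79 (2.08 to 3.68). In mesPVAT it was 0.0597 (0.00151 to 0.333), from 1 UMI. RP fat had 0 Plin5 UMIs beside 120 of Plin1, with an interval up to 3.12 that overlaps the lower bound of both brown depots. In mesPVAT on 10x Genomics it was 1.52 (0.725 to 2.81).

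**Figure D3:**
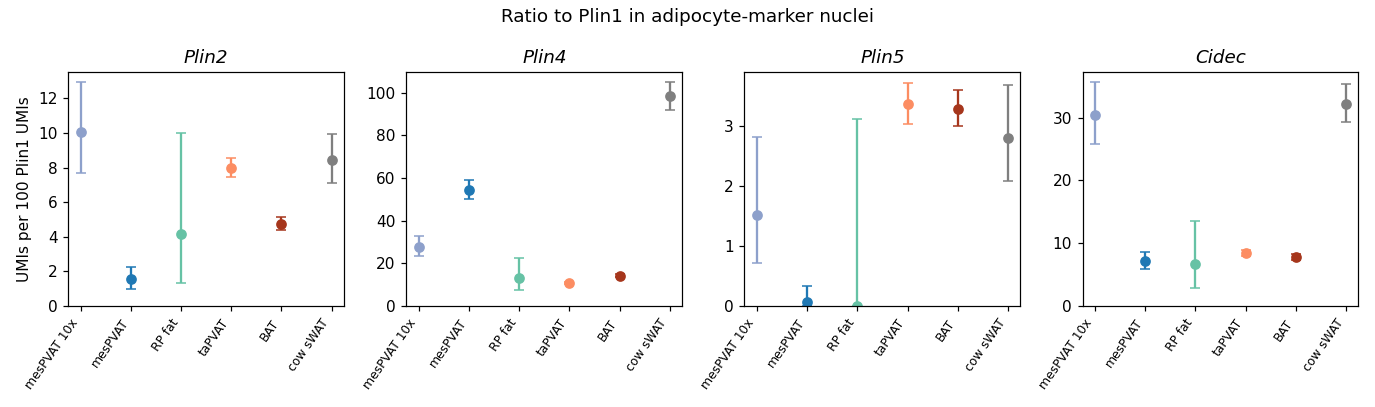
UMIs of Plin2, Plin4, Plin5 and Cidec per 100 Plin1 UMIs (linear axes) in adipocyte-marker nuclei of the 6 libraries, with exact 95% intervals from counting. Plin4 is highest in cow WAT (98.3) and in mesPVAT (54.4), and Plin5 in mesPVAT lies near 0.

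Plin2 per 100 Plin1 UMIs was higher in taPVAT at 7.99 (7.47 to 8.53) than in BAT at 4.75 (4.40 to 5.12), against 1.55 (1.01 to 2.28) in mesPVAT and 4.17 (1.33 to 10.0) in RP fat. Cidec, in contrast, was alike across the rat Parse libraries. It made up 7.1 (5.85 to 8.56) in mesPVAT, 6.67 (2.81 to 13.6) in RP fat, 7.87 (7.41 to 8.34) in BAT and 8.44 (7.91 to 9.0) in taPVAT, with 32.2 (29.4 to 35.4) in cow WAT and 30.4 (25.8 to 35.7) in mesPVAT on 10x Genomics. Fitm2 ranged from 1.07 to 3.33 in the rat Parse libraries, with 0.699 in cow WAT and 18.5 in mesPVAT on 10x Genomics. Bscl2 was at 2.44 in BAT and 2.89 in taPVAT, and at 0.298 (0.0967 to 0.698) in mesPVAT.

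Levels in adipocyte-marker nuclei gave a different picture of brown against white fat from sums over all nuclei. Plin1 was lower in BAT (3132 CPM) than in mesPVAT (4033 CPM), with a ratio of 0.777 (0.739 to 0.817). Plin4 was 4.94 times (4.56 to 5.34) higher in mesPVAT than in BAT and 6.50 times (5.97 to 7.09) higher than in taPVAT. Plin2 was higher in BAT by 2.38 (1.61 to 3.66) and in taPVAT by 4.01 (2.72 to 6.18), and Bscl2 by 6.36 (2.70 to 19.7) and 7.56 (3.21 to 23.4). Plin5 stood at 103 CPM (501 UMIs) in BAT and 106 CPM (399 UMIs) in taPVAT against 2.41 CPM (1 UMI) in mesPVAT. Cidec (0.861, 0.712 to 1.05) and Fitm2 (1.29, 0.799 to 2.20) could not be told apart between BAT and mesPVAT. With RP fat as the other white library, whose class held 115 nuclei, the intervals of BAT over RP fat included 1 for Plin1, Plin2, Plin4, Cidec, Fitm2 and Bscl2. Restricted to this class, 1 of 7 members, Bscl2, passed the rule of the lower brown against the higher white library and 0 were lower, where 2.81% of 21577 genes were higher, 23.6% lower and 26.4% either. That call rests on 5 Bscl2 UMIs in mesPVAT and 1 UMI in RP fat. Plin5 was not called because its 0 UMIs in RP fat were set to 3 counts. Its intervals over RP fat left out 1, with lower bounds of 1.25 for BAT and 1.28 for taPVAT.

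Plin2 in cow WAT was higher in immune-marker than in adipocyte-marker nuclei. Immune-marker nuclei held 102 CPM of PLIN2, 3.40 times (2.70 to 4.29) the level of endothelial-marker nuclei, and the adipocyte class stood at 0.444 (0.357 to 0.551) of the immune level. The adipocyte class held 157 of the 708 PLIN2 UMIs, and its level was 1.51 times (1.18 to 1.92) that of endothelial-marker and 1.26 times (1.02 to 1.55) that of stromal-marker nuclei. A split of the immune class, made after its values were seen, gave 110 CPM (94.8 to 127) in 236 nuclei with more macrophage than lymphocyte markers and 13.2 CPM (1.60 to 47.7, from 2 UMIs) in 48 nuclei with more lymphocyte markers. PLIN3 stood at 36.9 CPM (28.3 to 47.3) in the macrophage-marker nuclei of the cow, and its adipocyte class stood at 0.357 (0.237 to 0.533) of the level of the whole immune class. In brown rat fat, macrophage-marker nuclei held 16 Plin2 UMIs (136 CPM, 77.7 to 221) in taPVAT and 6 (146 CPM, 53.5 to 317) in BAT. The adipocyte class stood at 251 and 149 CPM there. In white rat fat they held 4 UMIs (158 CPM, 43.0 to 404) in mesPVAT on 10x Genomics and 3 (135 CPM, 27.9 to 395) in mesPVAT. RP fat had 0 UMIs, with an interval up to 291 CPM. In these 3 libraries the adipocyte class stood at 114, 62.6 and 111 CPM.

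Between libraries labelled as the same tissue on both platforms, these genes were called about as often as all genes. Of 7 members, 4 were called between mesPVAT on 10x Genomics and mesPVAT on Parse, where 58.7% of 14272 genes were, 20.8% higher on 10x Genomics and 37.9% lower. Fitm2 was 6.98 times (4.79 to 10.5) higher on 10x Genomics, Cidec 2.13 times (1.75 to 2.59), and Plin5 2.51 times (0.999 to 6.84, from 15 against 8 UMIs). Plin4 was 4.07 times lower on 10x Genomics and Plin1 1.95 times. In adipocyte-marker nuclei Cidec had a ratio of 1.20 (0.953 to 1.52), which includes 1. There Fitm2 was 4.85 times (2.94 to 8.45) and Plin2 1.81 times (1.14 to 2.98) higher on 10x Genomics. Plin4 was 7.01 times (5.97 to 8.26) and Plin1 3.56 times (3.25 to 3.90) lower. Scaling by size factors over all nuclei gave Cidec a ratio of 1.75, under 2-fold. Platform, genome build, nuclei preparation and animal cannot be told apart here, and the intervals for mesPVAT hold for each preparation alone. If the Parse labels of mesPVAT and RP fat were exchanged, tissue would differ as well.

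Ucp1-positive nuclei, with 1 or more Ucp1 UMIs, made up 62.7% of BAT (1693 nuclei) and 52.5% of taPVAT (1421 nuclei). They made up 3.17% of mesPVAT (96 nuclei) and 2.46% of RP fat (69 nuclei), and numbered 1 in mesPVAT on 10x Genomics and 11 in cow WAT, where no comparison was made. Over all nuclei of BAT, 6 of 7 members were at least 2-fold higher in Ucp1-positive nuclei, where 7.87% of 18959 genes were higher, 33.1% lower and 40.9% were called either way. The ratios were 6.89 (4.37 to 11.5) for Plin5, 3.10 (2.93 to 3.29) for Plin1, 2.65 for Bscl2, 2.63 for Plin4, 2.42 for Fitm2 and 2.30 for Plin2, with 1.51 (1.29 to 1.77) for Cidec. In taPVAT 6 of 7 were higher, where 6.32% of 18730 genes were higher, 31.6% lower and 37.9% were called either way. Plin5 led with 3.63 (2.56 to 5.28), and Cidec again had the lowest ratio, 1.26 (1.08 to 1.46). The median log2 ratio was 1.40 over members and -0.52 over all genes in BAT, and 1.10 and -0.49 in taPVAT.

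Ucp1-positive nuclei were also deeper and more often adipocytes. Their median was 2319 UMIs against 950 in BAT, and 2093 against 778 in taPVAT. Their adipocyte list stood at 10954 against 3322 CPM in BAT and at 9536 against 3404 CPM in taPVAT. A Ucp1 UMI was seen in 84.8% of adipocyte-marker nuclei of BAT and 78.9% of taPVAT, and in 21.9% and 19.3% of endothelial-marker nuclei, at median depths of 2192.5, 1896, 1051 and 895 UMIs in that order. Shares of the latter size are not read as Ucp1 expression in those nuclei, and their source was not tested. The comparison was therefore repeated inside the adipocyte class.

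Among adipocyte-marker nuclei of BAT, 1 of 7 members was called higher and 0 lower, where 4.4% of 16489 genes were higher, 28.8% lower and 33.2% were called either way. Plin5 stood at 108 CPM (487 UMIs) in the 1477 Ucp1-positive and 39.6 CPM (14 UMIs) in the 265 Ucp1-negative nuclei, a ratio of 2.73 (1.61 to 5.03). Plin1 (1.04, 0.981 to 1.11) and Plin4 (1.03, 0.873 to 1.22) were level. Plin2 had a ratio of 1.21 (0.891 to 1.68), Fitm2 of 1.25 (0.755 to 2.22) and Bscl2 of 1.87 (1.12 to 3.37). Cidec went the other way, at 231 CPM in Ucp1-positive and 439 CPM in Ucp1-negative nuclei, a ratio of 0.528 (0.445 to 0.629) that just missed the 2-fold rule.

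Among adipocyte-marker nuclei of taPVAT, 1 of 7 members was called higher and 1 lower, where 5.97% of 15605 genes were higher, 19.1% lower and 25% either. Plin2 was higher in the 1195 Ucp1-positive than in the 319 Ucp1-negative nuclei, with 263 against 131 CPM and a ratio of 2.01 (1.48 to 2.79). Cidec was lower, at 243 against 499 CPM, a ratio of 0.487 (0.411 to 0.579). Plin5 had a ratio of 1.56 (1.02 to 2.49). Plin1 (0.922, 0.867 to 0.982), Plin4 (0.917, 0.759 to 1.12), Bscl2 (1.03) and Fitm2 (1.20) were near 1. Hence the high ratios of Plin1 and Plin4 over all nuclei were not found inside the adipocyte class of either brown depot, whereas Cidec was lower in Ucp1-positive nuclei of both.

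**Figure D4:**
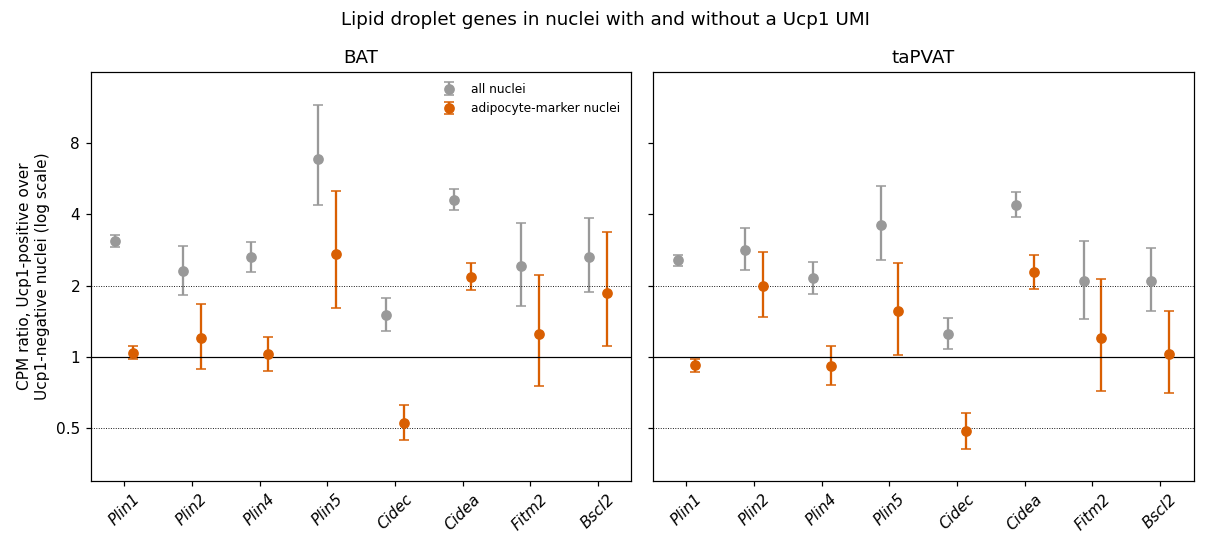
Ratio of CPM in Ucp1-positive over Ucp1-negative nuclei (log axis) for 7 members and Cidea in BAT and taPVAT, over all nuclei (grey) and adipocyte-marker nuclei (orange), with 95% intervals from counting and dotted lines at 2-fold. Inside the adipocyte class Plin1 and Plin4 lie near 1, Cidec lies near 0.5 and Cidea above 2 in both depots.

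Cidea, the relative of Cidec on the wider droplet list, ran opposite to Cidec in the same nuclei. It was higher in Ucp1-positive adipocyte-marker nuclei by 2.18 (1.91 to 2.50) in BAT and 2.28 (1.95 to 2.69) in taPVAT. It was the single gene of 27 tested on that list to be called higher in either depot, and Cavin1 the single one called lower, by 2.02 and 2.64 times. Of all genes in this class, 4.4% were called higher and 28.8% lower in BAT, and 5.97% higher and 19.1% lower in taPVAT. These counts are thus not read as a result about the list. Other values moved with Ucp1 status inside the class. Of 9 thermogenic genes with enough UMIs, 8 were called higher in BAT and 5 in taPVAT, against the same shares of all genes. Cidea is on this list too and is counted in both depots. The thermogenic list without Ucp1, Cidea included, stood at 7538 against 3044 CPM in BAT and 6882 against 3098.5 CPM in taPVAT. The adipocyte list stood at 11799 against 8819 CPM and 10325 against 8985 CPM, and the immune list at 114 against 311 CPM and 247 against 359 CPM. The endothelial list stood at 747 against 985 CPM in BAT and 706 against 682 CPM in taPVAT. Median depth was 2422 against 984 UMIs in BAT and 2243 against 871 UMIs in taPVAT. The part of these lists in the Cidec and Plin5 ratios was not tested.

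Depth could be evened out by thinning each nucleus before it was called Ucp1-positive. At 500 UMIs per nucleus the log2 ratio of Cidec in the adipocyte class was -0.66 in both depots, and that of Plin5 was 1.16 in BAT and 0.22 in taPVAT. Plin2 in taPVAT was at 0.54 and no longer called. At that depth 54.4% (47.1 to 61.6) of BAT adipocyte-marker nuclei with a Cidec UMI had a Ucp1 UMI, against 64.4% (61.9 to 66.8) of those without. In taPVAT the shares were 46.0% (38.8 to 53.4) and 59.9% (57.0 to 62.7). For Plin5 in BAT they were 79.3% (69.3 to 87.3) with and 62.4% (60.0 to 64.7) without, and in taPVAT 61.6% (49.5 to 72.8) and 57.8% (55.1 to 60.5). For Plin2 in taPVAT the shares of 66.2% (57.6 to 74.1) with and 57.1% (54.3 to 59.9) without overlapped. The Cidec difference was thus present in both depots at equal depth, and the Plin5 difference was beyond counting error in BAT. Shares of all genes were not counted at this depth. Without thinning, 28.8% of genes in BAT and 19.1% in taPVAT were called lower in Ucp1-positive nuclei of this class. Falls of 2-fold or more were thus common, and that of Cidec is not read as particular to it.

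A finer split, made after seeing the data, sorted adipocyte-marker nuclei thinned to 1000 UMIs by their number of Ucp1 UMIs. Cidec stood at 430 CPM with no Ucp1 UMI (265 nuclei), 253 with 1 (285 nuclei), 251 with 2 to 3 (478 nuclei) and 186 with 4 or more (419 nuclei) in BAT. In taPVAT it stood at 424, 234, 238 and 228 CPM over 250, 235, 361 and 294 nuclei. Most of the fall lay between none and 1 Ucp1 UMI. Plin5 in BAT stood at 41.5 CPM (20.7 to 74.3) with none and 102 to 117 CPM in the other bins, and in taPVAT at 72.0 CPM (42.7 to 114) with none and 105 to 140 CPM in the others. Plin1 lay between 3000 and 3516 CPM in taPVAT and between 3268 and 3400 CPM in BAT, with no order. Plin4 lay between 293 and 371 CPM in taPVAT and 425 and 543 CPM in BAT.

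**Figure D5:**
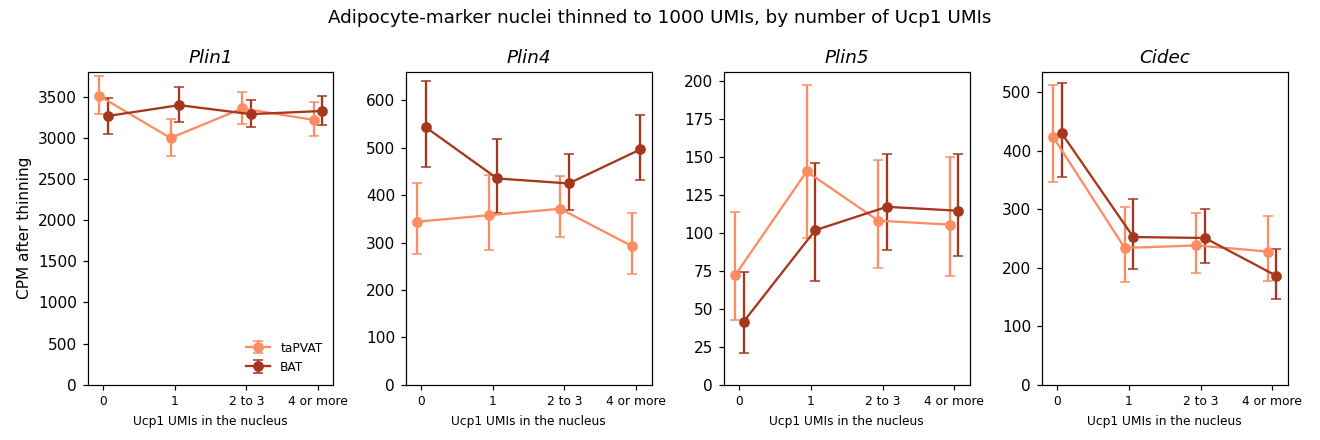
Level of Plin1, Plin4, Plin5 and Cidec (CPM, linear axes starting at 0) in adipocyte-marker nuclei of BAT and taPVAT thinned to 1000 UMIs, by the number of Ucp1 UMIs in the nucleus, with exact 95% Poisson intervals. Cidec stands highest in nuclei without a Ucp1 UMI (430 CPM in BAT, 424 CPM in taPVAT), and Plin1 stays between 3000 and 3516 CPM.

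In the white depots the Ucp1-positive nuclei were few, and, by median UMIs, they stood at 329.5 against 347 in mesPVAT and at 284 against 211.5 in RP fat. In mesPVAT 1 of 6 members with enough UMIs was called over all nuclei, where 15.4% of genes were higher, 4.28% lower and 19.7% were called either way. This was Bscl2, from 2 against 19 UMIs, with a ratio of 3.32 (0.375 to 13.8). In RP fat 1 of 7 was called, where 19.3% were higher, 2.72% lower and 22% either way. This was Cidec, from 3 against 36 UMIs, with a ratio of 2.73 (0.538 to 8.65). With 0 UMIs in Ucp1-positive nuclei, Plin5, Fitm2 and Bscl2 in RP fat and Fitm2 in mesPVAT could not be called. The same held for Plin2 and Fitm2 in the adipocyte class of mesPVAT. Plin1 (0.914, 0.695 to 1.18) and Plin4 (1.06, 0.756 to 1.46) in mesPVAT were level. In the adipocyte class 0 of 5 members were called in mesPVAT, where 19.9% of genes were higher, 2.84% lower and 22.8% either, and 0 of 2 in RP fat, where 16.1% were higher, 2.22% lower and 18.4% either. A Ucp1 UMI was seen in 4.28% of adipocyte-marker nuclei of mesPVAT (median 593 UMIs), against 2.37% of endothelial-marker (546 UMIs), 2.22% of stromal-marker and 3.24% of unnamed nuclei. In RP fat the shares were 7.83% (323 UMIs), 1.59% (510 UMIs), 4.57% and 2.12%. The endothelial shares are not read as expression here either, and their source was not tested. The interval of the adipocyte share (2.73% to 6.36% in mesPVAT, 3.64% to 14.3% in RP fat) overlapped that of the endothelial share in both depots. Nothing about Ucp1-expressing nuclei is read from these comparisons. The adipocyte class held 23 Ucp1-positive nuclei in mesPVAT and 9 in RP fat. In that class of mesPVAT, Plin1 had a ratio of 0.749 (0.554 to 0.993) and Plin4 of 0.944 (0.649 to 1.33). Whether differences of the size seen in BAT could be detected with so few nuclei was not tested.

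Across the 28 sums of a marker class in a rat Parse library (at least 20 nuclei), the genes whose pattern was most like each member were found by Pearson correlation of log2(CPM + 10) among 17785 genes. These sums share libraries and depth, and the values describe them only. Plin1 was most like Acsl1 (0.89) and Adrb3 (0.87), both adipocyte markers that defined the classes. Plin4 was most like the imprinted gene Peg3 (0.86), the natriuretic peptide clearance receptor Npr3 (0.84) and Mical3 (0.81). Plin5 was most like an unnamed gene (0.85), the acetyl-CoA carboxylase Acacb (0.80) and the mitochondrial carrier Slc25a42 (0.80). Bscl2 was most like the carnitine acetyltransferase Crat (0.89), Pik3r1 (0.87) and the succinate dehydrogenase subunit Sdhb (0.86), Cidec like the insulin receptor substrate Irs2 (0.88), Fitm2 like Fam3a (0.86), Odf2l (0.82) and Psmd6 (0.81), and Plin2 like Zeb2 (0.73) and Sik2 (0.70). Among members, Plin1 was closest to Cidec (0.82) and Plin4 (0.72), and Plin4 and Plin5 had a value of 0.21.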

How the data were processed

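Nuclei of 6 frozen fat samples, 1 library per group, were measured by single-nucleus RNA-seq. The deposited values are raw UMI counts per gene and nucleus. The authors made those of the 10x Genomics library with Cell Ranger 7.1.0 from nuclei sorted on a DNA stain and a rat genome older than GRCr8, and those of the 5 Parse libraries with the Parse pipeline on GRCr8 (rat) or ARS-UCD1.3 (cow), from 2 sublibraries each. The study's methods name a doublet caller, and none was run here. All deposited barcodes were used, and groups came from the labels. The 8 genes, the marker lists (69 markers in 8 classes), the 32 other lipid droplet genes and the 11 thermogenic genes beside Ucp1 were chosen with earlier results of these data known.

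UMIs were summed over nuclei and divided by all UMIs of those nuclei (CPM). A call needed a 2-fold difference and 10 UMIs over both sides, with 0 set to 3 counts, and brown against white set the lower brown against the higher white library. In the other comparisons, a side with 0 UMIs that then came out higher was given a ratio of 1 and no call. Calls were counted on all genes of the table. Thinning drew 200, 500 or 1000 UMIs per nucleus without replacement. The genes named are the 8 members, listed genes that were called and those of the 3 genes most like each member, by correlation, that have a symbol, of which 1 is not reported here. Python 3.11.15, numpy 2.4.6, scipy 1.17.1, pandas 2.3.3 and matplotlib 3.10.9 were used. Calls between rat Parse libraries were tested on simulated data with counting error only and changes planted in genes with many UMIs. Calls from few UMIs, by Ucp1 status and between platforms were not tested in this way. Alternatives were the study's limits on nuclei, other scalings, each sublibrary alone, other folds and minimums, other Ucp1 and marker rules, and thinning.

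Libraries held 845316 to 16827260 UMIs. Plin5 in white rat fat rests on 8 to 15 UMIs. Promoters were RefSeq windows of 250 bases, cut to the bases outside the gene, and were found for all 8 genes.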

Additional observations from a re-analysis of the deposited data

How the results depend on the processing

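No paired analysis was possible because each group holds 1 library. Of 128 counts of called members under the alternatives, 91 stayed within 1.5 times the reported count and 37 moved. Of 204 levels, 152 stayed within the interval of the reported level and 52 moved. Of 88 shares of nuclei, set against those after thinning, 16 stayed and 72 moved. Ratios from few UMIs had wide intervals, and for them staying inside the interval says little. Of 505 log2 ratios, 432 stayed within the interval of the reported ratio (for brown against white, within 1.5-fold), 71 did not, and 2 ratios of called members reversed: Plin5 between mesPVAT and RP fat was 1.21 in sublibrary 2 alone, and Fitm2 between brown and white fat was -0.13 in adipocyte-marker nuclei. Of the ratios of members not called, 35 changed sign, 15 of them outside the interval or 1.5-fold range, among them, in adipocyte-marker nuclei, Plin2 (-0.83) and Fitm2 (-1.04) between mesPVAT and RP fat and Plin1 (-0.06) and Plin4 (-1.19) between brown and white fat. A 1.5-fold call gave 1 member for taPVAT against BAT, 6 for brown against white, 3 for Ucp1 status in BAT adipocyte-marker nuclei and 2 for it in RP fat. A 3-fold call gave 1 for mesPVAT against RP fat, 2 between platforms, 2 for Ucp1 status in BAT and 1 in taPVAT, and 0 in RP fat and in adipocyte-marker nuclei of BAT and taPVAT. Adipocyte-marker nuclei alone gave 2 for mesPVAT against RP fat and 1 for brown against white. The 2 were Plin4, higher, and Fitm2, lower from 18 against 4 UMIs. Brown against white gave 5 without the most abundant gene and mitochondrial genes, 6 with size factors, 5 in sublibrary 1 and 7 with RP fat alone as white fat. Thinning gave 3 for Ucp1 status in BAT, 2 in taPVAT and 0 in RP fat, and in adipocyte-marker nuclei 0 in taPVAT and 1 in RP fat. In adipocyte-marker nuclei, sublibrary 1 alone gave 2 in BAT, 1 in taPVAT and 1 in mesPVAT, sublibrary 2 gave 2 in BAT and 1 in taPVAT, and no minimum of UMIs gave 1 in mesPVAT and 1 in RP fat. Over all nuclei, mesPVAT gave 0 at 500 UMIs or more, in sublibrary 1 and under the interval rule, and RP fat gave 2 at 500 UMIs or more and in each sublibrary, and 0 at 2 Ucp1 UMIs and under the interval rule. The cause was not tested. Shares of all genes called were counted only for size factors and for adipocyte-marker nuclei in brown against white. The other counts have no such share beside them and are not read as results about the members. Size factors moved the median log2 ratio of all genes from 0.12 to 0.01 for taPVAT against BAT, from -0.29 to 0.02 for mesPVAT against RP fat and from -0.34 to -0.62 between platforms, and turned no called member.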
